A study of Mus musculus with 16 samples.

Results

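Fc receptors are the proteins through which cells sense antibody, and 6 genes of this family and of the related Fc receptor-like family were followed in germinal centre B cells: Fcgr2b, Fcer2a, Fcrl1, Fcrl5, Fcrla and Fcmr. They were taken by name from a table of 48593 genes. All 6 were in the table and all 6 were among the 16606 genes that passed the filter on low counts. They were selected on measured values, namely their levels and their differences from wild type in these same libraries. The comparisons of each genotype with its own wild type are therefore given as a description of the 6 genes, with no p value. Where calls of the 6 genes are listed, they are a description as well.

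The cells were B220+ PNA+ CD95+ B cells taken from mice given sheep red blood cells, an antigen that starts a T cell-dependent response. All groups shared the immunisation and the sort, and the labels give no age. There were 2 cohorts. One had 3 libraries of wild type cells (KO cohort WT) and 3 in which both Crebbp copies were conditionally knocked out in the germinal centre (KO). The other, built around an arginine-to-histidine knock-in of Crebbp (RH), had 3 wild type (RH cohort WT), 4 heterozygous (RH HET) and 3 homozygous (RH HOMO) libraries. Crebbp encodes a histone acetyltransferase that acts as a coactivator of transcription and is recurrently mutated in lymphomas of germinal centre origin. The Cre line that deletes the gene is not named in the labels, nor is the cell type in which the knock-in allele is switched on.

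Fc receptors bind the constant part of immunoglobulins and couple it to activating or inhibitory signals. In B cells the main IgG receptor is FcγRIIB, the product of Fcgr2b, whose inhibitory motif recruits the phosphatase SHIP1 and dampens signalling when antigen bound in immune complexes joins it to the B cell receptor. CD23, the product of Fcer2a, is the low-affinity IgE receptor of follicular B cells, and Fcmr encodes a receptor for IgM. Fcrl1 and Fcrl5 encode B cell surface proteins of the Fc receptor-like family, while Fcrla encodes a relative that stays inside the cell.

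Totals ran from 41362856 to 93040297 counts per library. Crebbp counts, summed over the whole gene and so also over exons outside a deletion, lay at 126.6 to 148.6 CPM (counts scaled to a common library size) in KO cohort WT and at 108 to 136.9 CPM in KO, so they do not check the knockout. RH cohort WT 1 carries a title of the knock-in cohort and a batch tag of the knockout cohort. The title was followed, and the other placing is given for the 6 genes and for calls in RH HOMO further on. RH cohort WT 1 and RH HOMO 2 lay far from the rest on principal component 1, at 50.7 and 77.1 against -40.7 to 24.3 for the other libraries. Of 12 germinal centre B cell markers, 11 were in the table and detected in every group, with a summed level of 4939 to 5824 CPM.

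The 6 genes lie at 4 places in the mouse genome (GRCm38, GENCODE M21). Fcgr2b (ENSMUSG00000026656) occupies chr1:170958617-170976547 on the minus strand, and Fcrla (ENSMUSG00000038421) lies 31.0 kb away at chr1:170917576-170927583 on the same strand. Fcmr (ENSMUSG00000042474) is on another part of the same chromosome, at chr1:130865669-130880791 on the plus strand. Fcrl1 (ENSMUSG00000059994, chr3:87376387-87402934) and Fcrl5 (ENSMUSG00000048031, chr3:87435773-87500678) are neighbours 32.8 kb apart, both on the plus strand. Fcer2a (ENSMUSG00000005540) is at chr8:3681737-3694175 on the minus strand. All 6 are annotated as protein-coding.

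The promoters of Fcgr2b, Fcrla and Fcer2a are shown because these genes kept the same direction from wild type in all 3 genotypes, Fcer2a opposite to the other two. Each runs from 250 bases before to 50 bases after a RefSeq transcription start (GRCm38.p6), 5′ to 3′ on the strand of the gene, and the capitals mark the 50 bases from the start onward. The windows are chr1:170976022-170976321, chr1:170927534-170927833 and, for the second of the 3 Fcer2a start sites in the table, chr8:3690812-3691111, all minus strand. Of the 3 Fcer2a windows only this one holds a match to a motif searched below. The 50 bases from the first start site are in 2 GENCODE transcripts, those from the second in 1.
Fcgr2b: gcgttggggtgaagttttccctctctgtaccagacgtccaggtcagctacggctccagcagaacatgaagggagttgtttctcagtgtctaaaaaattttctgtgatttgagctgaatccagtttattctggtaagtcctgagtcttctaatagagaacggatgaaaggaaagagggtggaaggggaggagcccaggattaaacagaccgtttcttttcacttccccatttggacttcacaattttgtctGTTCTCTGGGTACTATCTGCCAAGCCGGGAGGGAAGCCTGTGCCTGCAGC
Fcrla: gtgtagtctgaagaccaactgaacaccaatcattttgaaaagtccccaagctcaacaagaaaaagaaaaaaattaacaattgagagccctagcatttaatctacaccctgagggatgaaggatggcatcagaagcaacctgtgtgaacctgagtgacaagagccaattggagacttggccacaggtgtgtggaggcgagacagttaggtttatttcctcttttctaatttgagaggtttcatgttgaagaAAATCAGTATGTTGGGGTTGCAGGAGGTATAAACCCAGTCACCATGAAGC
Fcer2a, second start site: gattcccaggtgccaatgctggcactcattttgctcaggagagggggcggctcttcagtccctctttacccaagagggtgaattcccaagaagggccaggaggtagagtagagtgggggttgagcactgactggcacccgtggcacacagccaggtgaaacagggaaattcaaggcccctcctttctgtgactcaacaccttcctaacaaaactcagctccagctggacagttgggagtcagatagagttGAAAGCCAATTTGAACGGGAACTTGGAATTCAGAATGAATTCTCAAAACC
Both strands of these windows and of the other members' promoters were searched for 5 motifs. The palindromic site of STAT6, the factor that acts downstream of interleukin 4, was found once, as TTCCCAAGAA at position -168 of the second Fcer2a start site. It occurs in 6.953% of 32851 promoters of the same length. A site like the interferon-stimulated response element was found once, as GAAAAAGAAA at position -192 of Fcrla, and occurs in 3.443% of promoters. The cyclic AMP response element TGACGTCA (1.79% of promoters), its inner part TGACG (20.81%, including all those of the longer form) and the octamer ATTTGCAT (1.735%) were in none of the windows. Each share is for 1 promoter, while several windows were searched. These are matches of letters, not measured binding.

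Fcrl5 was scarce and the other 5 genes were abundant. In KO cohort WT the mean level per kb of exon was 166.5 ± 17.7 CPM for Fcmr, 113 ± 5.99 for Fcrla, 89.6 ± 9.8 for Fcer2a, 47.3 ± 2.32 for Fcrl1, 30.6 ± 0.572 for Fcgr2b and 0.459 ± 0.0525 for Fcrl5 (SD, n = 3 each). In RH cohort WT the same order held, from 145.4 ± 31.2 CPM per kb for Fcmr to 28.4 ± 0.666 for Fcgr2b and 1.05 ± 0.41 for Fcrl5. Exon length here counts every annotated exon once, so a gene with long alternative exons, such as Fcgr2b with 5790 bases, is set low on this scale.

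Fcgr2b, the inhibitory IgG receptor, was higher in all 3 Crebbp genotypes than in their own wild type. Its level was 173, 180 and 179 CPM in the 3 KO cohort WT libraries and 228, 216 and 233 CPM in the 3 KO libraries. In the knock-in cohort it was 167, 160 and 166 CPM in wild type, 225, 219, 226 and 216 CPM in RH HET and 260, 314 and 279 CPM in RH HOMO. No library of any mutant genotype reached down to a wild type library of either cohort, and every RH HOMO library was above every RH HET library. The log2 difference from the own wild type was 0.35 ± 0.08 (SE) in KO, 0.43 ± 0.07 in RH HET and 0.79 ± 0.08 in RH HOMO. As folds these were 1.27, 1.35 and 1.73. The spread within groups was small, with coefficients of variation of 1.87% and 2.35% in the wild types and 9.58% in RH HOMO. In order of mean level the groups ran from RH cohort WT (164.2 CPM) over KO cohort WT (177.2), RH HET (221.7) and KO (225.9) to RH HOMO (284.3). Of these neighbours only RH HET and KO overlapped.

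**Figure D1:**
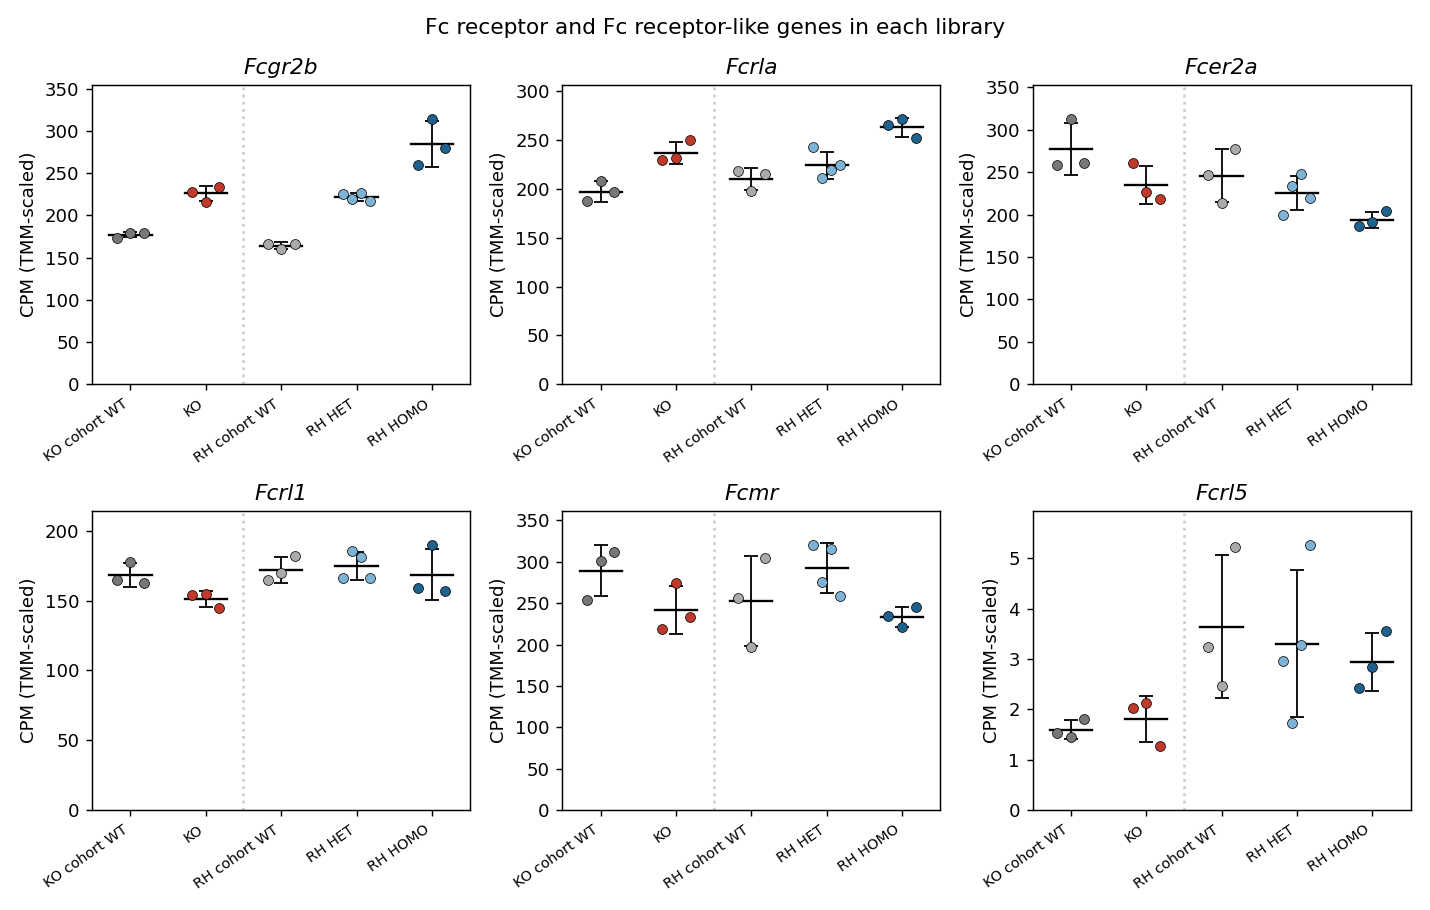
Level of each gene in every library, in CPM on TMM-scaled library sizes, by group. Points are libraries, lines are means and bars are SD, and the dotted line parts the 2 cohorts. Fcgr2b lies between 160 and 180 CPM in all 6 wild type libraries and between 216 and 314 CPM in all 10 mutant libraries.

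Fcrla, the intracellular relative, moved the same way by less. It was at 187, 208 and 196 CPM in KO cohort WT and at 229, 232 and 250 CPM in KO, with no overlap. In the knock-in cohort it was at 218, 198 and 215 CPM in wild type, at 243, 211, 219 and 224 CPM in RH HET and at 266, 271 and 252 CPM in RH HOMO. The RH HOMO libraries were above all other RH libraries, while RH HET overlapped with wild type. Log2 differences were 0.26 ± 0.08 (SE) in KO, 0.09 ± 0.07 in RH HET and 0.32 ± 0.08 in RH HOMO. With each of the 16 libraries left out in turn the RH HOMO difference was 0.28 to 0.35.

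Fcer2a, the low-affinity IgE receptor CD23, had lower means in every Crebbp genotype. It was at 259, 312 and 260 CPM in KO cohort WT and at 261, 227 and 218 CPM in KO, where 1 KO library lay within the wild type range. In the knock-in cohort it was at 246, 214 and 277 CPM in wild type, at 200, 234, 248 and 220 CPM in RH HET and at 186, 191 and 204 CPM in RH HOMO. The RH HOMO libraries all lay below wild type, and RH HET overlapped with both. Log2 differences were -0.24 ± 0.11 (SE) in KO, -0.13 ± 0.10 in RH HET and -0.34 ± 0.11 in RH HOMO, and with all 6 wild type libraries as 1 control the RH HOMO value was -0.43. Means ran from 193.5 CPM in RH HOMO over RH HET, KO and RH cohort WT to 277.1 CPM in KO cohort WT, and each neighbouring pair of groups overlapped.

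Fcmr, the IgM receptor, showed no common direction. It was at 254, 301 and 312 CPM in KO cohort WT and 219, 275 and 233 CPM in KO. In the knock-in cohort wild type had the widest spread of the 5 groups, at 256, 197 and 305 CPM, beside 320, 275, 315 and 258 CPM in RH HET and 235, 221 and 245 CPM in RH HOMO. Each mutant genotype overlapped with its own wild type, and RH HOMO lay below RH HET without overlap. Log2 differences were -0.26 ± 0.14 (SE) in KO, 0.21 ± 0.13 in RH HET and -0.11 ± 0.14 in RH HOMO. The RH HET value was -0.02 with a term for the mitochondrial share of counts, which was 7.34% and 7.15% in 2 of the RH cohort WT libraries and 3.43% to 5.84% in the other libraries.

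Fcrl1, a B cell surface protein of the Fc receptor-like family, had group means between 151.2 and 174.7 CPM. It was at 165, 178 and 163 CPM in KO cohort WT and 154, 155 and 145 CPM in KO, which did not overlap. The RH libraries lay at 164, 169 and 182 CPM in wild type, 166, 185, 181 and 166 CPM in RH HET and 159, 190 and 157 CPM in RH HOMO. Log2 differences were -0.15 ± 0.09 (SE) in KO, 0.02 ± 0.08 in RH HET and -0.03 ± 0.09 in RH HOMO.

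Fcrl5, its neighbour on chromosome 3, was the scarcest of the members. It had 275 to 624 counts per group and levels of 1.53, 1.46 and 1.81 CPM in KO cohort WT and 2.03, 2.13 and 1.28 CPM in KO. The knock-in cohort had 3.25, 2.46 and 5.23 CPM in wild type, 2.97, 1.73, 3.27 and 5.26 CPM in RH HET and 2.42, 2.85 and 3.56 CPM in RH HOMO. Each mutant genotype overlapped with its own wild type, and log2 differences were 0.18 ± 0.35 (SE) in KO, -0.15 ± 0.32 in RH HET and -0.31 ± 0.34 in RH HOMO.

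By the cut-off used for all genes, an adjusted p under 0.05 in edgeR, 1 of the 6 (Fcgr2b) was on the called side in KO, beside 1.3% of all tested genes. None was in RH HET, beside 0.0181%, and 2 (Fcgr2b and Fcrla) were in RH HOMO, beside 1.57%. Fcrla stayed there only when RH HET 1 or RH HET 2 was the library left out. Without overlap with the own wild type, 3 of 6 were apart in KO (25.4% of tested genes), 1 in RH HET (6.49%) and 3 in RH HOMO (15.4%). The median log2 difference over the 6 genes was 0.01 in KO, 0.06 in RH HET and -0.07 in RH HOMO, beside 0.00, -0.01 and 0.02 over all tested genes. Since these contrasts were used to choose the genes, nothing is read from the counts.

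**Figure D2:**
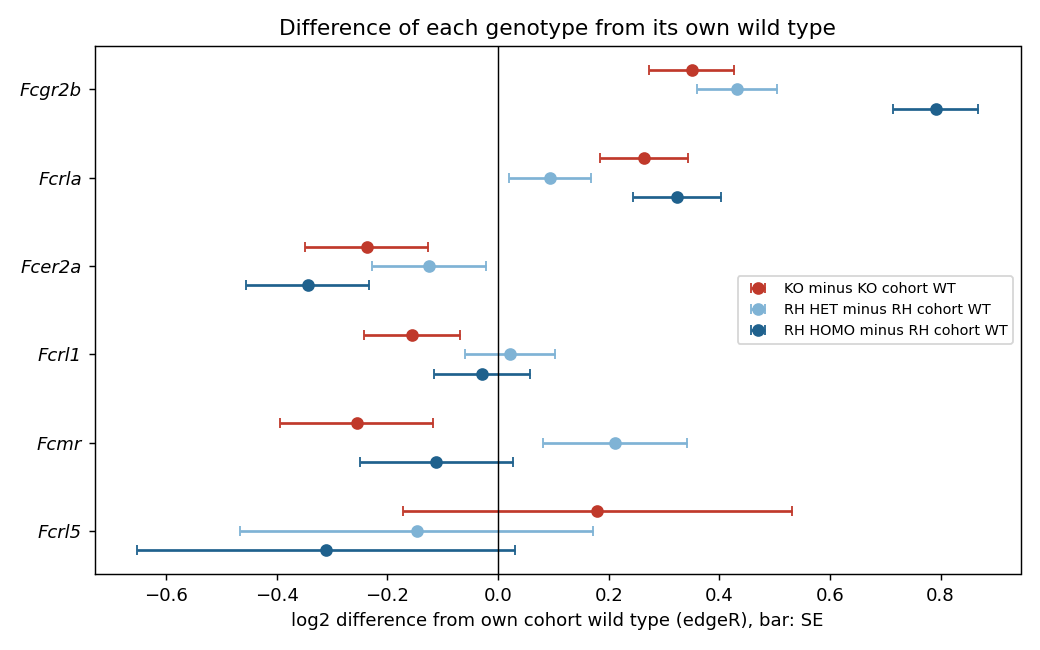
Log2 difference of each genotype from its own wild type for the 6 genes, from edgeR, with bars of 1 SE. Fcgr2b is at 0.35, 0.43 and 0.79, Fcer2a is left of 0 in all 3 genotypes, and Fcrl5 has SEs of 0.32 to 0.35.

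The ratio of counts of a pair of genes in the same library does not depend on library scaling. Fcgr2b had fewer counts than Fcer2a in wild type cells, with a ratio of 0.644 ± 0.0596 in KO cohort WT and 0.675 ± 0.0725 in RH cohort WT (SD, n = 3 each). The ratio was 0.966 ± 0.0988 in KO (n = 3), 0.99 ± 0.0963 in RH HET (n = 4) and 1.47 ± 0.151 in RH HOMO (n = 3). The highest wild type library was at 0.746 and the lowest mutant library at 0.875. Against Fcrl1 the ratio of Fcgr2b was 1.05 ± 0.0442 in KO cohort WT and 1.5 ± 0.11 in KO. It was 0.956 ± 0.0509 in RH cohort WT, 1.27 ± 0.0744 in RH HET and 1.69 ± 0.0818 in RH HOMO. Against Fcmr it was 0.617 ± 0.0578 in KO cohort WT and 0.944 ± 0.138 in KO, and 0.67 ± 0.134 in RH cohort WT, 0.764 ± 0.0635 in RH HET and 1.22 ± 0.173 in RH HOMO. Here RH HET (0.704 to 0.837) overlapped with RH cohort WT (0.546 to 0.812), and the lowest KO library (0.787) lay below the highest RH cohort WT library. Against Fcrla, which differed in the same direction, the ratio moved less, from 0.899 ± 0.0326 in KO cohort WT to 0.954 ± 0.0345 in KO, and from 0.782 ± 0.0236 in RH cohort WT to 0.99 ± 0.0544 in RH HET and 1.08 ± 0.0924 in RH HOMO.

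**Figure D3:**
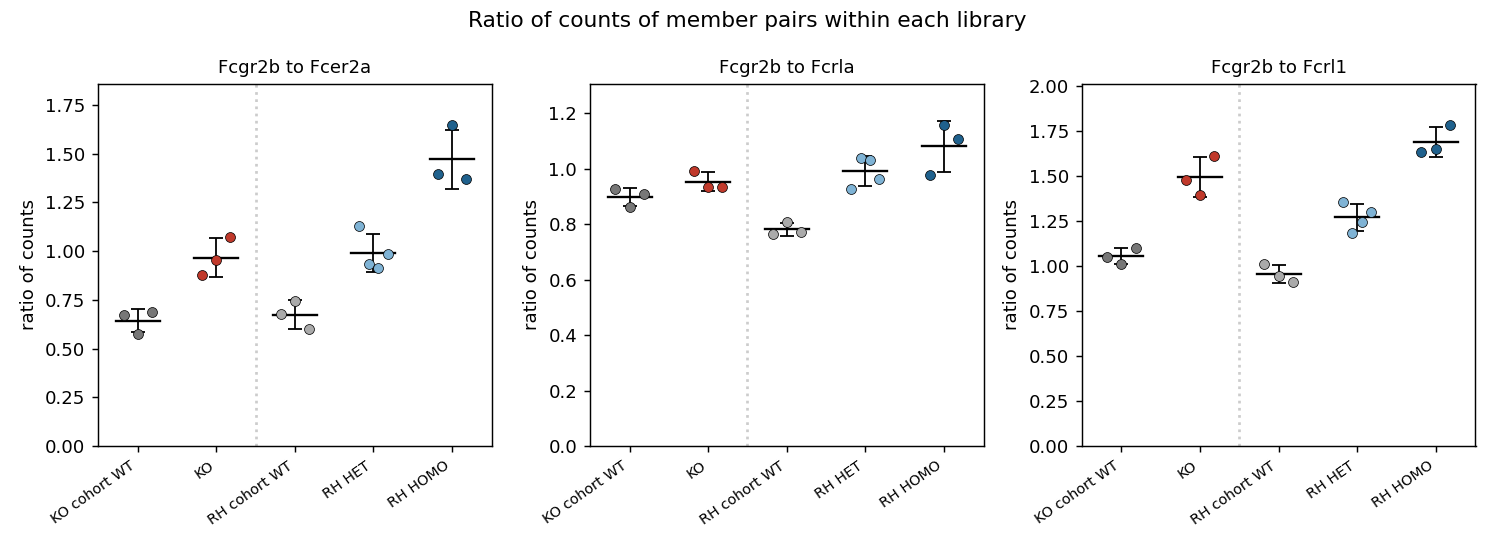
Ratio of counts of Fcgr2b to Fcer2a, Fcrla and Fcrl1 in each library, by group. Points are libraries, lines are means and bars are SD. The ratio to Fcer2a is at most 0.746 in wild type libraries and at least 1.37 in RH HOMO.

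RH HOMO was also compared with RH HET, a contrast the choice of genes did not name. The levels in these libraries took part in the choice, so adjusted p values of the 6 genes are a description here too. Fcgr2b was 0.36 ± 0.07 (SE) higher on the log2 scale in RH HOMO, with 3 of 3 libraries above all 4 of RH HET, and this did not pass the edgeR threshold (adjusted p = 0.108). Fcrla was 0.23 ± 0.07 higher (edgeR adjusted p = 0.331). Fcmr was at -0.32 ± 0.13 (edgeR adjusted p = 0.403), again without overlap, and Fcer2a was at -0.22 ± 0.10 (edgeR adjusted p = 0.439). None of the 6 genes and none of the 16606 tested genes (0%) was called in this comparison, while 1889 genes had an unadjusted p under 0.05. DESeq2 called 132 genes, Fcgr2b among them. Of the 6, 2 were higher and 1 lower without overlap, and 8.06% of tested genes did not overlap in either direction. For Fcgr2b the difference from wild type in RH HOMO exceeded that in KO by 0.44 ± 0.11 on the log2 scale. For Fcrla the same difference between genotypes was 0.06 ± 0.11. Each is a description, since both contrasts took part in choosing the genes.

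The wild types of the 2 cohorts were compared as a measure of what differs without the mutation. Levels in these libraries also took part in choosing the 6 genes, so their adjusted p values are a description. None of the 6 genes was called, while 5.06% of tested genes were, and 2 of the 6 (Fcrl5 and Fcgr2b) did not overlap, beside 34.2% of tested genes. Fcrl5 came closest, with a level 1.19 ± 0.35 (SE) higher on the log2 scale in RH cohort WT, no overlap and an edgeR adjusted p of 0.0551. It was called without RH HET 2, RH HET 4, RH HOMO 2 or RH HOMO 3, at edgeR adjusted p values of 0.0289 to 0.0477. With RH cohort WT 1 in the knockout cohort the Fcrl5 difference was 0.96, with an edgeR adjusted p of 0.715. Fcgr2b was at -0.11 ± 0.08 (edgeR adjusted p = 0.396), a smaller difference than that of any mutant genotype from its own wild type. Fcer2a and Fcmr were at -0.17 ± 0.11 and -0.20 ± 0.14.

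Placing or leaving out the libraries that stood apart moved Fcgr2b little. Its log2 difference was 0.44 in RH HET and 0.79 in RH HOMO with RH cohort WT 1 in the knockout cohort. In RH HOMO it was 0.73 with both RH cohort WT 1 and RH HOMO 2 left out, and 0.71 to 0.84 with each library left out in turn. In KO it was 0.34 to 0.39 with each library left out, but the call was lost without any 1 of the 6 libraries of that cohort. In RH HET it was 0.43 to 0.45, and it was called without RH HOMO 2 or RH HOMO 3. These calls of Fcgr2b are a description, since the contrasts took part in choosing the genes. When only the 6 libraries compared were fitted, no gene was called in RH HOMO, and Fcgr2b was at 0.79. With RH cohort WT 1 in the knockout cohort, Fcrla was at 0.12 in RH HET and 0.34 in RH HOMO, Fcer2a at -0.12 and -0.36, Fcmr at 0.22 and -0.11, Fcrl1 at -0.01 and -0.07, and Fcrl5 at -0.22 and -0.40. Of the other genes named below as changed in RH HOMO, only Sh2d2a, Hsd17b11, Hmgn3, Dhrs7, Tspan31 and Tle3 kept their call there, while Ighg1, Mef2b, Gpr183, Cd86, Traf1, Lmo2, Thy1, Gm37154 and Slc29a4 lost it (edgeR adjusted p of 0.0509 to 0.339). Hsd17b11, Hmgn3, Dhrs7, Slc29a4 and Tspan31 were picked for following Fcgr2b, so their calls are a description.

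The other Fc receptors and Fc receptor-like genes were scarce in these cells. Of 13 such genes 8 were tested, and none was called in KO, RH HET or RH HOMO. Their median log2 difference was -0.43 in KO, 0.25 in RH HET and 0.21 in RH HOMO, from low counts. Fcgr1, the high-affinity IgG receptor of myeloid cells, had at most 10 counts in a library, and the activating receptor gene Fcgr3 at most 26. Fcer1a, the ligand-binding chain of the high-affinity IgE receptor of mast cells, and Fcrl6 had 0 counts in all 16 libraries. This allows up to 0.0317 to 0.0786 CPM, counting error only, and more if each read pair was counted as 2. Fcgr4, another activating receptor, was at 0.611 to 2.44 CPM and Fcer1g, the signalling chain that activating receptors share, at 0.333 to 1.31 CPM. Fcgr4 was at -0.77 ± 0.26 (SE, log2) in KO, with an edgeR adjusted p of 0.203. Trim21, a cytosolic antibody receptor found in most cells, was the most abundant of the 13, at 22.2 to 31.3 CPM. The highest level of any of the activating receptor genes Fcgr1, Fcgr3 and Fcgr4 in a library was thus 2.44 CPM, beside at least 160 CPM of Fcgr2b.

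Fcgr2b is also expressed by macrophages and follicular dendritic cells, so their markers are set beside it. The summed level of 15 macrophage and monocyte markers was 14.9 to 20.1 CPM in KO cohort WT, 15.6 to 18.7 in KO, 18.6 to 24.1 in RH cohort WT, 19.7 to 27.9 in RH HET and 20.1 to 33.3 in RH HOMO. Of these, 12 were tested and none was called. Their median log2 difference was 0.37 in KO, 0.57 in RH HET and 0.71 in RH HOMO, with 7, 9 and 10 positive. For RH cohort WT against KO cohort WT it was 1.07, with all 12 positive. Adgre1, which encodes F4/80, was at 1.18 ± 0.29 (SE, log2) in RH HET (edgeR adjusted p = 0.335). Its level was 0.734 to 1.56 CPM in RH cohort WT, 1.98 to 3.75 in RH HET and 2.56 to 2.90 in RH HOMO. In KO it was 0.611 to 0.977 CPM, beside 0.828 to 1.36 in KO cohort WT. The sum of the 15 markers overlapped between each genotype and its wild type. Of 11 follicular dendritic cell and stroma markers, Pdpn, Ccl19 and Ccl21a were at 0 counts in all groups and Cxcl13 in both groups of the knockout cohort. Their sum, 105.7 to 139.9 CPM in KO cohort WT, 153 to 177 in KO, 121.7 to 161 in RH cohort WT, 127.2 to 159.7 in RH HET and 167.6 to 237.2 in RH HOMO, was mostly Vim, a filament gene that lymphocytes also express. This sum lay above the own wild type without overlap in KO and RH HOMO. Among single tested genes, 25.4% in KO and 15.4% in RH HOMO did not overlap in either direction. Vim was at 0.51 ± 0.15 (SE, log2) in RH HOMO, with an edgeR adjusted p of 0.103. The part of these sums in the Fcgr2b levels was not tested. In sorted bulk RNA, fewer cells of a type and less RNA per cell cannot be told apart.

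Genes that act with the receptors were counted from lists. Among all tested genes, 1.3% were called in KO, 0.0181% in RH HET and 1.57% in RH HOMO. Of 15 genes of inhibitory signalling below such receptors, 1 rose and 1 fell in KO, and none was called in RH HET or RH HOMO. Inppl1, which encodes SHIP2, a relative of the phosphatase that FcγRIIB recruits, rose in KO from 25.4 ± 1.45 to 76.6 ± 12.4 CPM (SD, n = 3 each; log2 1.59, edgeR adjusted p = 5.12e-05). Inppl1 was at 26.9 ± 1.84 CPM in RH cohort WT (n = 3), 35.4 ± 4.57 in RH HET (n = 4) and 39.4 ± 6.95 in RH HOMO (n = 3), where log2 was 0.55 and the edgeR adjusted p 0.0684. Fyn, a kinase of the Src family, fell by 0.68 on the log2 scale in KO (edgeR adjusted p = 0.00689), and its call was lost without KO 1 (adjusted p = 0.0525). Of 12 tested genes for other inhibitory receptors of B cells, none was called in any of the 3 genotypes, nor were any of 12 genes of the B cell receptor and its coreceptor. Their medians were -0.17 and -0.12 in KO, 0.09 and 0.01 in RH HET and 0.02 and -0.09 in RH HOMO. The smallest p values belonged to the inhibitory receptor gene Ceacam1 (log2 -0.66 in KO, edgeR adjusted p = 0.13) and the coreceptor gene Cd81 (log2 -0.32 in KO, edgeR adjusted p = 0.191).

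For CD23, a list of 12 genes of interleukin 4 signalling, Notch2 signalling and shedding was read. None was called, with medians of 0.00, 0.10 and 0.04 in KO, RH HET and RH HOMO. Il4ra, the interleukin 4 receptor chain, had the smallest p, at 0.48 ± 0.13 (SE, log2) in RH HOMO (edgeR adjusted p = 0.0851), where Fcer2a was lower. Among 9 immunoglobulin constant region and joining chain genes, 1 was called, in RH HOMO, where 1.57% of all tested genes were. Ighg1, the IgG1 heavy chain, fell in RH HOMO from 1759 ± 184.1 to 1186 ± 150.1 CPM (SD, n = 3 each; log2 -0.57, edgeR adjusted p = 0.0377). The Ighg1 call was lost without any 1 of 7 libraries, namely KO cohort WT 2, RH HET 4, RH HOMO 1, RH HOMO 2 and each RH cohort WT library (edgeR adjusted p of 0.0523 to 0.13). In KO Ighg1 was at 0.45 ± 0.13 (edgeR adjusted p = 0.123).

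CD23 and the IgM receptor are most abundant on B cells outside germinal centres, so markers of B cell states were counted too. Of 15 tested follicular naive B cell markers 12 had a positive difference in KO, 13 in RH HET and 14 in RH HOMO, with medians of 0.49, 0.18 and 0.32. For RH cohort WT against KO cohort WT 11 of the 15 were positive, with a median of 0.43 and 2 called higher. Against the own wild type 1 was called, in RH HOMO, where 1.57% of all tested genes were. Gpr183, an oxysterol receptor that guides B cells to the follicle edge, rose (log2 0.92, edgeR adjusted p = 0.0443), and its call was kept without 3 of 16 libraries. The summed level of these markers overlapped between every genotype and its wild type (1316 to 1643 CPM in RH HOMO, 1148 to 1579 in RH cohort WT). None of 10 marginal zone markers was called, with medians of -0.37, 0.03 and -0.17 in KO, RH HET and RH HOMO. Their sum in KO (553.7 to 569.6 CPM) lay below KO cohort WT (646.1 to 712.5 CPM), and the other genotypes overlapped with their wild type. Of 11 germinal centre markers Rgs13, a regulator of G protein signalling, fell in KO (log2 -1.58, edgeR adjusted p = 0.00223). The transcription factor gene Mef2b fell in RH HOMO (log2 -0.57, edgeR adjusted p = 0.0143), a call lost without RH cohort WT 1 (adjusted p = 0.0662). Of 15 light zone genes 1 was called in KO and 3 in RH HOMO, beside 1.3% and 1.57% of all tested genes. Between the wild types of the 2 cohorts 1 of the 15 was called, beside 5.06% of all tested genes. Lmo2, a transcriptional adaptor, rose in KO (log2 0.45) and RH HOMO (0.39), with calls lost without KO cohort WT 1, KO cohort WT 3 or KO 1, and without RH HOMO 1, RH HOMO 3, RH cohort WT 1 or RH cohort WT 2 (edgeR adjusted p of 0.0512 to 0.0975). The costimulatory gene Cd86 rose in RH HOMO (log2 0.39, edgeR adjusted p = 0.0496, call kept without 2 of 16 libraries) and the signalling adaptor gene Traf1 fell (log2 -0.48, edgeR adjusted p = 0.0281, call kept without 12 of 16). None of 13 dark zone genes was called, with medians of 0.03, -0.06 and -0.14. The dark zone sum in RH HOMO (5806 to 7068 CPM) lay below RH cohort WT (7515 to 7708 CPM), as did the sum of germinal centre markers (4939 to 5181 against 5384 to 5754 CPM), and both overlapped with wild type in KO and RH HET. Light zone sums overlapped with wild type in all 3 genotypes. Among single tested genes, 25.4% in KO and 15.4% in RH HOMO did not overlap with wild type in either direction. The part of the marker sums in the levels of the 6 genes was not tested.

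Genes around the members were read to see whether a whole neighbourhood differed. Of 49 annotated genes within 500 kb of Fcgr2b or Fcrla, 33 were tested. None was called in KO or RH HET, and 1, Gm37154, fell in RH HOMO (log2 -1.33, edgeR adjusted p = 0.0466, from 1.27 to 0.503 CPM), a call kept without 2 of 16 libraries. The median log2 difference of the 33 was 0.11 in KO, 0.01 in RH HET and 0.19 in RH HOMO, and 25 of 33 were positive in RH HOMO. For RH cohort WT against KO cohort WT the median was 0.25, with 25 of 33 positive and 2 called lower. The next gene beyond Fcrla, Fcrlb, was at 0.44 ± 0.25 (SE, log2) in KO, 0.00 ± 0.23 in RH HET and 0.21 ± 0.25 in RH HOMO. The processed pseudogene Gm2962 overlaps Fcrla on the same strand, so reads of the 2 may not be parted, and it was at -0.13 ± 0.17, 0.26 ± 0.17 and 0.38 ± 0.18. Fcgr4, 42.4 kb on the other side of Fcgr2b, was at -0.77, 0.08 and 0.54. Around Fcrl1 and Fcrl5, Sh2d2a, a signalling adaptor gene, fell in KO (log2 -1.61, edgeR adjusted p = 0.000668) and RH HOMO (log2 -1.30, edgeR adjusted p = 0.0023), and none of the other 15 tested neighbours was called. No tested neighbour of Fcmr (16) or Fcer2a (24) was called in any of the 3 genotypes.

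**Figure D4:**
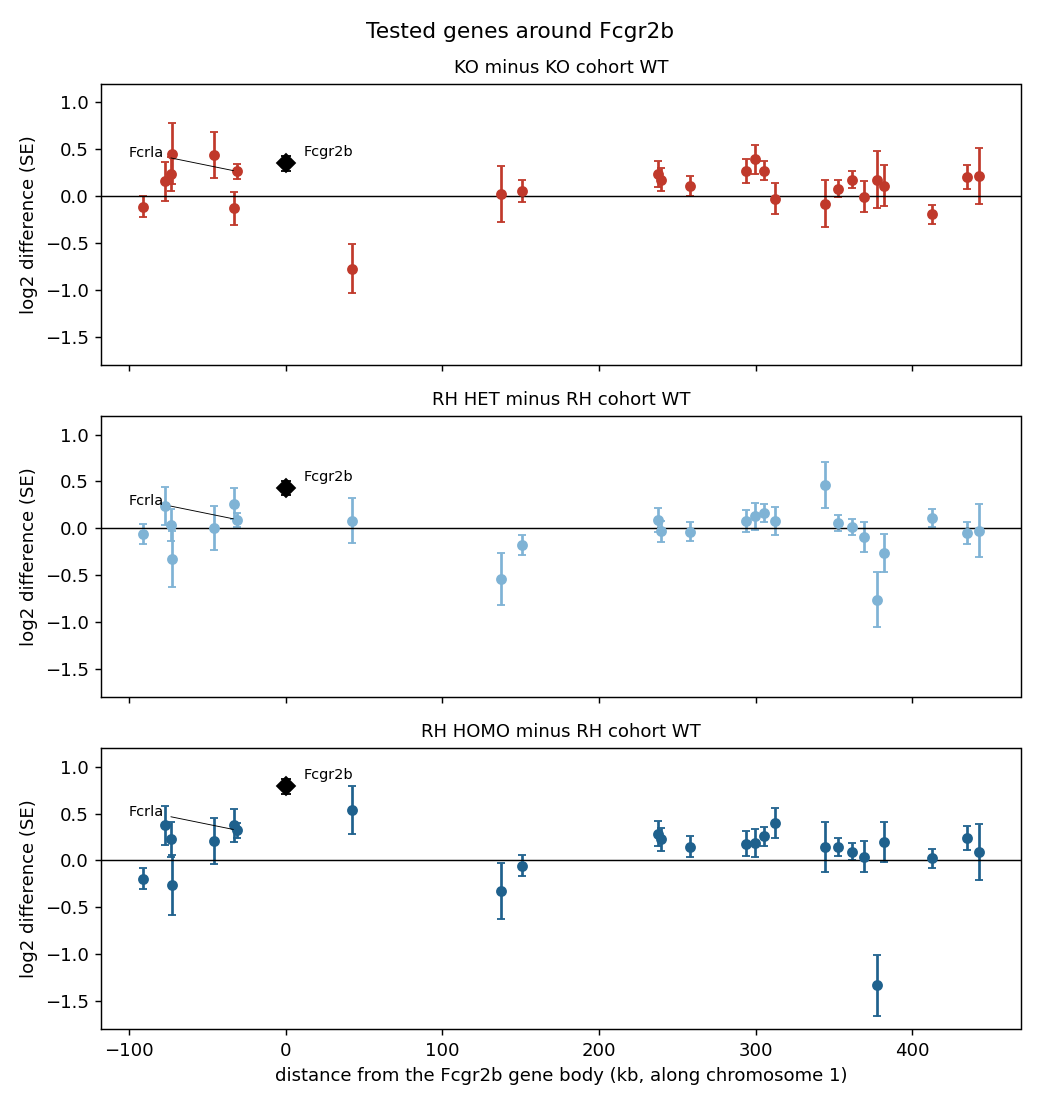
Log2 difference from the own wild type, with 1 SE, for Fcgr2b (black diamond, at 0) and 26 tested genes around it with a mean of at least 1 CPM, by distance along chromosome 1. Fcgr2b is at 0.79 in RH HOMO and Fcrla, 31.0 kb away, at 0.32, and the point at -1.33 is Gm37154.

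Genes whose levels followed a member across the 16 libraries were found by Pearson correlation of log2 CPM among 9213 genes. The libraries share cohort and genotype, so r is a description. Closest to Fcgr2b were Hsd17b11 (r = 0.92), a hydroxysteroid dehydrogenase of lipid droplets, Hmgn3 (0.92), a nucleosome-binding protein gene, Dhrs7 (0.92), a reductase gene, Slc29a4 (0.89), a monoamine transporter gene, and Tspan31 (0.89), a tetraspanin gene. They lie on other chromosomes. Their log2 differences in RH HOMO were 1.32, 0.55, 0.85, 0.66 and 0.89, in KO 0.88, 0.33, 0.20, 0.46 and 0.58, and in RH HET 0.54, 0.20, 0.41, 0.49 and 0.28. All 5 were called in RH HOMO, and Hsd17b11 and Tspan31 also in KO. These calls are a description too, since the 5 genes were picked for following Fcgr2b in these same libraries. Among the members, Fcgr2b and Fcrla had r = 0.87, Fcgr2b and Fcer2a -0.67, and Fcrla and Fcer2a -0.71. Closest to Fcrla were Clstn1 (0.92) and Nudt3 (0.89), and closest to Fcer2a were Alcam (0.88), an adhesion molecule gene, and Tex9 (0.85). Fcrl1 was followed by Rgs14 (0.90) and Acap1 (0.88), Fcmr by Bsdc1 (0.90) and Akna (0.89), and Fcrl5 by Pml (0.84) and Shisa5 (0.82).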

How the data were processed

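RNA-seq libraries of sorted germinal centre B cells were analysed from 1 table of whole-number counts per gene symbol (48593 genes, 16 libraries) that the authors deposited. Per the submitters' processing notes, CASAVA 1.8, HISAT2, featureCounts and mm10 were used; versions of the last tools and the strand setting are not given there, and the kit does not mark strand. Of counts from 1 to 20, 79.1% to 87.3% were even, so each read pair may have been counted as 2. Cells were taken 12 days after immunisation by the growth protocol, but 10 by a tag. Groups came from titles. Library numbers only name a library, and the labels do not say that each is a separate mouse, so p values reflect only the spread among these libraries. Replicates differed beyond sampling noise (chi-square per degree of freedom of 17.7 to 225).

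Counts were filtered (filterByExpr), TMM-scaled and fitted with edgeR 4.0.16 in R 4.3.3, with 5 group means over all 16 libraries (11 residual degrees of freedom), the quasi-likelihood test and Benjamini-Hochberg adjustment over 16606 genes. Calls were made at an adjusted p below 0.05. SE is the log2 difference over the root of F. Log2 CPM for correlations used a prior count of 2 and genes of mean log2 CPM of at least 2. The fit was tested on simulated data. Alternatives were DESeq2 1.42.0 and its size factors, no filter, 1 CPM in 3 libraries, only the libraries compared, other placings of wild type libraries, terms for sex and mitochondrial share, and leaving out libraries.

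The members and gene lists were chosen with earlier results of these data known. Named genes were all members, all called members of each list (else the one with the smallest p), called neighbours within 500 kb and the nearest tested, and the genes most like each member. Table symbols matched 1 gene in GENCODE M21 for 47966 of 48593. Promoters of all 6 members were found in the RefSeq table (GRCm38.p6).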

Additional observations from a re-analysis of the deposited data

Results flagged for a closer look

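Fcmr differed from the own wild type in opposite directions in KO and RH HET, at -0.26 against 0.21 on the log2 scale. Every KO library lay below the KO cohort WT mean of 289 CPM and every RH HET library above the RH cohort WT mean of 252.4 CPM. With a term for the mitochondrial share of counts the RH HET value was -0.02, so that the opposite direction was gone. The difference between the genotypes was not tested.

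In RH HET, 1 library stood far from the other 3 for 2 named genes. Inppl1 was at 28.5 CPM in RH HET 4, beside 37.3 to 38 CPM in the others. Alcam was at 30.02 CPM in RH HET 3, beside 25.9 to 26.6 CPM. In all, 47 such groups of 4 libraries were examined, and chance flags about 1 in 20.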

How the results depend on the processing

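No paired analysis was possible because the labels carry no replicate numbers. Every Fcgr2b difference from its own wild type kept its direction in all alternatives run. The counts of genes called moved more, and the cause was not tested. For KO (216 genes) they were 557 with DESeq2, 699 with only the libraries compared, 461 with both RH cohort WT 1 and RH HOMO 2 left out, and 38 to 382 with 1 library left out. For RH HET (3) they were 51 with DESeq2, 1 with RH cohort WT 1 in the knockout cohort, 11 with 6 wild types as 1 control, 0 with the mitochondrial term or only the libraries compared, 19 with no filter, 6 without both libraries and 0 to 7 with 1 left out. For RH HOMO (261) they were 666, 102 and 657 for the same first 3 settings, 0 with only the libraries compared and 115 to 281 with 1 left out. For RH HOMO against RH HET (0) they were 132 with DESeq2, 4 with the mitochondrial term, 63 with no filter, 2 with only the libraries compared or without both, 7 with the sex term and 0 to 1 with 1 left out. For the wild types (840) they were 2088 with DESeq2, 1 with RH cohort WT 1 moved, 0 with the mitochondrial term, 1406 with no filter, 1854 with only the libraries compared and 3 to 2688 with 1 left out.

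Calls of the members in every comparison are a description, since their levels in these libraries took part in choosing them. Of the 6 Fc receptor genes, KO (1 called) had 2 with DESeq2 or only the libraries compared, 0 with no filter and 0 to 1 with 1 left out. RH HET (0) had 1 with the 1 CPM filter, DESeq2, 6 wild types or without both libraries, and 0 to 1 with 1 left out. RH HOMO (2) had 1 with DESeq2 size factors, RH cohort WT 1 moved, the mitochondrial term, no filter or without both, 0 with only the libraries compared, 3 with 6 wild types (Fcer2a added), and 1 to 2 with 1 left out. RH HOMO against RH HET (0) had 1 with DESeq2, and the wild types (0) had 1, Fcrl5, with the 1 CPM filter, DESeq2, no filter, only the libraries compared or the sex term, and 0 to 1 with 1 left out. Reversed were Fcrl1 between wild types (-0.0083 with the mitochondrial term, and -0.0066 without RH cohort WT 3 in a range of -0.0066 to 0.072), Fcmr between wild types (0.096 with that term), Fcrl5 in RH HOMO against RH HET (0.14 without RH HET 4, in a range of -0.40 to 0.14) and Crebbp in KO (0.044 with 6 wild types). Differences near 0 also changed sign: Fcrl5 ran from -0.81 to 0.34 in RH HET and from -0.87 to 0.17 in RH HOMO, and Fcmr from -0.02 to 0.38 in RH HET and from -0.33 to 0.04 in RH HOMO. With 1 library left out, Fcrl1 ran from -0.0025 to 0.072 in RH HET and from -0.12 to 0.01 in RH HOMO. Fcrl5 had 275 to 624 counts per group, and its coefficient of variation within groups ran from 11.4% in KO cohort WT to 44.3% in RH HET.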

Other observations

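Markers of further cell types bore on what the sorted cells could hold. Among all tested genes, 1.3% were called in KO, 0.0181% in RH HET and 1.57% in RH HOMO. None of 9 tested plasma cell markers was called in KO, RH HET or RH HOMO, with medians of 0.02, 0.00 and -0.02 on the log2 scale. Jchain, the joining chain of IgM and IgA, had the smallest p among them, at -0.29 in KO (edgeR adjusted p = 0.0925), and it was called without RH HOMO 2 (adjusted p = 0.043). The summed level of plasma cell markers in KO (1222 to 1233 CPM) lay below KO cohort WT (1286 to 1306 CPM). Among single tested genes, 25.4% did not overlap in KO in either direction. Of 12 memory B cell genes, Gpr183 rose and Tle3, a corepressor gene, fell in RH HOMO (log2 -0.77, edgeR adjusted p = 0.0201). The Tle3 call was lost without RH HOMO 1 or RH cohort WT 2 (edgeR adjusted p of 0.0678 to 0.117).

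Of 5 tested dendritic cell markers, Flt3, a cytokine receptor gene that lymphoid cells also use, fell in KO (log2 -0.51, edgeR adjusted p = 0.0473, call kept without 3 of 16 libraries). The sum of 8 dendritic cell markers in KO (35.4 to 39.1 CPM) lay below KO cohort WT (47.1 to 58.2 CPM) without overlap. For this and the next sum, 25.4% of single tested genes did not overlap in KO in either direction. The summed level of 12 T cell markers was 125.8 to 138.8 CPM in KO, below the 183.2 to 193.1 CPM of KO cohort WT, and 206.7 to 255.4 CPM in the RH cohort, where genotypes overlapped with wild type. It was mostly Lck (76.2 to 159.7 CPM) and Cd2 (43.3 to 149.9 CPM), which B cells also express, and no other marker passed 1.87 CPM in a library. Of the 6 tested, Thy1 rose in RH HOMO from 0.3 ± 0.111 to 1.32 ± 0.47 CPM (SD, n = 3 each; log2 2.16, edgeR adjusted p = 0.0282), a call lost without RH HOMO 2, RH cohort WT 2 or RH cohort WT 3 (edgeR adjusted p of 0.0897 to 0.135). No NK cell marker (2 tested) or erythroid marker (3 tested) was called. Of 7 neutrophil and 6 mast cell and basophil markers none passed the filter, and their sums reached at most 0.671 and 0.565 CPM in a library.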
